A study of Mus musculus with 8 samples.

Results

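The 37 genes described here mark cell types that are not epithelial, namely endothelial cells (13 genes), fibroblasts (12 genes) and leukocytes (12 genes). They were followed in RNA of epithelial cells of the mouse lung. Each was read from the probe set whose platform annotation gives that gene as its only symbol, and all 37 were found among the 19938 genes measured. Foxf1 had 2 such probe sets and the one with the higher mean was used. The cells came from lungs of E18.5 embryos, the stage shortly before birth, and were taken out of a dissociated lung suspension with magnetic beads against the epithelial surface protein Epcam. The 4 knockout arrays hold cells in which ShhCre, a Cre recombinase active in the progenitors of the lung epithelium, had removed Mst1 and Mst2, kinases of the Hippo pathway, and the other 4 arrays are controls. The labels give no genotype for the controls beyond that word, no strain, and no statement on pooling of embryos or on litters. They call each array a biological replicate, and the p-values measure the spread between these arrays.

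Bead selection enriches for cells that carry a surface protein and rarely gives a pure fraction. Lung endothelium forms the capillary net around the airspaces, fibroblasts supply growth factors and matrix to the epithelium, and fetal macrophages settle in the lung before birth. ShhCre was directed at the epithelium, so these lineages are not the ones in which the kinases were to be deleted. In bulk RNA, fewer cells of a type and less RNA per cell cannot be told apart, and whether the signal of a marker came from cells without Epcam or from the epithelium was not tested.

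Levels are log2 expression of a probe set, and differences are knockout minus control on the log2 scale, each with its standard error (SE, n = 4 against 4 arrays). Values of a group are given in the order of replicates 1 to 4. A gene is said to have risen or fallen where limma's adjusted p over all 19938 genes is under 0.05. By that rule 1715 genes rose and 2031 fell, and with each array centred on the mean of the epithelial markers 1029 rose and 2778 fell. Epcam itself lay between 9.94 and 10.24 in control and between 9.84 and 10.24 in knockout arrays and did not pass (0.01, adjusted p = 0.949). Its lowest value was that of knockout replicate 4. The mean of 19 epithelial markers lay between 10.96 and 11.06 in control and between 11.01 and 11.15 in knockout arrays. Of the 19, the keratins Krt7 (0.69), Krt19 (0.62) and Krt8 (0.27) rose and the claudin Cldn3 fell (−0.49), so the mean used for centring holds genes that changed. Knockout replicate 4 received the lowest of limma's array weights (0.325, against 0.721 to 2.23 in the other arrays).

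Of 13 endothelial markers 5 rose in the knockout arrays and none fell. Of 12 fibroblast markers 1 rose and none fell. Most of them, like most endothelial markers, had their highest values in knockout replicates 3 and 4. Of 12 leukocyte markers none passed limma's test, and the controls among them ranged widely. Over all 19938 genes 8.6% rose and 10.2% fell, 18.8% in all. The members of a list vary together and are not independent of each other, so these counts describe the lists and do not test them.

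**Figure D1:**
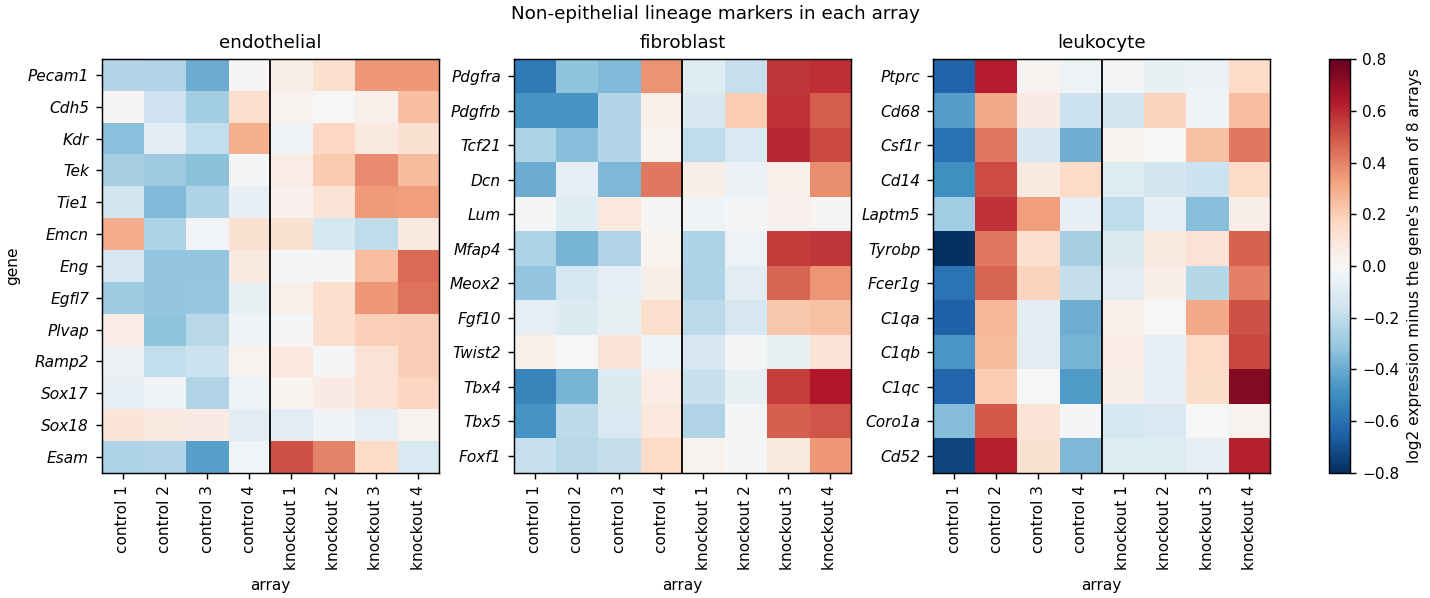
Heat map of the 37 markers (rows) in the 8 arrays (columns), with controls left and knockouts right of the black line. Colour gives log2 expression minus the gene's mean over the arrays, red for higher and blue for lower. Most endothelial rows turn red towards the knockout arrays, most fibroblast rows are reddest in knockout replicates 3 and 4, and leukocyte rows are red in control 2 and, in 11 of 12, bluest in control 1, with Laptm5 bluest in knockout 3.

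The endothelial markers that rose were the adhesion molecules Pecam1 and Esam, the receptor tyrosine kinases Tek and Tie1, and the secreted matrix protein Egfl7, each by 1.33-fold to 1.39-fold. Pecam1, the junctional protein CD31, read 8.82, 8.81, 8.66 and 9.06 in control and 9.11, 9.18, 9.40 and 9.40 in knockout arrays. Every knockout value lay above every control value, with control replicate 4 nearest to them. The difference was 0.44 (SE 0.098, adjusted p = 0.00985), and the exact permutation test over the 70 assignments of the arrays gave p = 0.0286, the smallest two-sided p that 4 against 4 arrays allow.

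Tek, the receptor of the angiopoietins also called Tie2, read 8.23, 8.21, 8.17 and 8.48 in control and 8.55, 8.71, 8.88 and 8.75 in knockout arrays. The groups did not overlap, and the rise was 0.45 (SE 0.088, adjusted p = 0.00456). Tie1, the related receptor that pairs with Tek, read 8.82, 8.63, 8.73 and 8.91 in control and 9.01, 9.09, 9.32 and 9.31 in knockout arrays. Its groups did not overlap either, and it rose by 0.41 (SE 0.089, adjusted p = 0.00793). Knockout replicates 3 and 4 held the highest values of both receptors.

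Egfl7, which endothelial cells secrete into the vessel matrix, read 9.27, 9.24, 9.25 and 9.49 in control and 9.59, 9.68, 9.90 and 9.98 in knockout arrays. It rose by 0.48 (SE 0.095, adjusted p = 0.00506), the largest difference of the endothelial list, with no overlap. For Pecam1, Tek, Tie1 and Egfl7 the exact permutation p was 0.0286 each.

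Esam, an adhesion molecule of endothelial tight junctions, took another order over the arrays. It read 10.28, 10.29, 10.08 and 10.50 in control and 11.03, 10.92, 10.67 and 10.40 in knockout arrays. Its highest value was that of knockout replicate 1 and its lowest knockout value, that of replicate 4, lay inside the control range. The rise of 0.47 (SE 0.13, adjusted p = 0.0306) had an exact permutation p of 0.0571. Within an array the log2 difference of Esam from Pecam1 lay between −0.020 and 0.026 in controls, with its control mean set to 0, and at 0.47, 0.29, −0.18 and −0.45 in knockout replicates 1 to 4. This pair was chosen after its values were seen.

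In 11 of 13 endothelial genes the difference was above 0, as it was in 45% of all genes. The next 4 genes did not pass. Sox17, a transcription factor of arterial endothelium, differed by 0.19 (SE 0.065, adjusted p = 0.0758) with no overlap between 7.16 to 7.37 in control and 7.42 to 7.57 in knockout arrays (exact permutation p = 0.0286). Eng, the coreceptor endoglin of the TGF-beta family, read 9.19, 9.02, 9.01 and 9.40 in control and 9.31, 9.32, 9.57 and 9.78 in knockout arrays. Its groups overlapped through control replicate 4 (0.34, SE 0.12, adjusted p = 0.0781). Plvap, which forms the diaphragms of endothelial pores, differed by 0.25 (SE 0.090, adjusted p = 0.0776), and Ramp2, a partner of the adrenomedullin receptor, by 0.19 (SE 0.071, adjusted p = 0.0929).

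The classical lineage markers Cdh5 and Kdr were closer to 0. Cdh5, VE-cadherin of endothelial junctions, lay between 10.23 and 10.64 in control and between 10.51 and 10.75 in knockout arrays (0.15, SE 0.094, adjusted p = 0.337). Kdr, the main receptor of Vegfa, lay between 9.04 and 9.66 in control and between 9.34 and 9.54 in knockout arrays (0.17, SE 0.12, adjusted p = 0.395), and the highest Kdr value was that of control replicate 4. The sialoglycoprotein Emcn (−0.07, SE 0.12, adjusted p = 0.747) and the transcription factor Sox18 (−0.08, SE 0.061, adjusted p = 0.482) had negative differences. Emcn was highest in control replicate 1 at 10.19. Over the endothelial list the differences ran from −0.08 to 0.48 with a median of 0.25, beside −0.02 over all genes.

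In 5 of 13 endothelial genes all knockout values lay above all control values, beside 10.2% of all genes. Without knockout replicates 3 and 4 together 3 endothelial genes rose (Tek, Egfl7 and Esam) and the list median was 0.16. Over all 19938 genes 1280 rose there, against 1715 with all arrays. Without control replicates 1 and 2 together 0 endothelial genes rose, and 992 of all genes did. In that setting the list median stayed at 0.25 and Pecam1 (0.41), Tek (0.40) and Egfl7 (0.42) kept their sign. The call of Esam ended without any 1 of control replicates 1 to 3 or knockout replicates 1 to 3 and with array medians centred.

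Promoter sequences are shown for Tek and Tie1, receptors of 1 pathway that rose together, to give what lies before their starts. ETS family factors, which act in endothelial and blood cells, bind DNA around GGAA, and the letters searched were AGGAAG on either strand (CTTCCT on the other). RefSeq promoter windows of GRCm38.p6 were at hand for 19 of the 37 genes, and the 250 bases before each start were read. Capitals mark a match. GGAA without these flanking letters is not marked, although the windows printed here hold it on either strand. The Tek window is chr4:94739039-94739288 on the plus strand and holds 0 matches, and that of Tie1 is chr4:118489850-118490099 on the minus strand and holds 1, starting at position −219 from the start of transcription.
Tek: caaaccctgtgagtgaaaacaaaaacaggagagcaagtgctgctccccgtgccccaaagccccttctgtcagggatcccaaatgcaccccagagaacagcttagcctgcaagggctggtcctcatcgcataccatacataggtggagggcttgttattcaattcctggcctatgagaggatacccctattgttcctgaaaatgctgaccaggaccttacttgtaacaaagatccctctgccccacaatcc
Tie1: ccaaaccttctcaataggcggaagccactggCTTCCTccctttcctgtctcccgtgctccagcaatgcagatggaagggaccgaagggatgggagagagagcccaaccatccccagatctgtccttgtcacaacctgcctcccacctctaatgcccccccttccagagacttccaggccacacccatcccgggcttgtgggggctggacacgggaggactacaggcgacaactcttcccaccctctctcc
The letters were found in 5 of 8 windows of endothelial, 2 of 6 windows of fibroblast and 7 of 9 windows of leukocyte members, and in 29.5% of all 32851 windows. Several windows belong to the same gene. A match is a description of the letters and says nothing of binding.

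**Figure D2:**
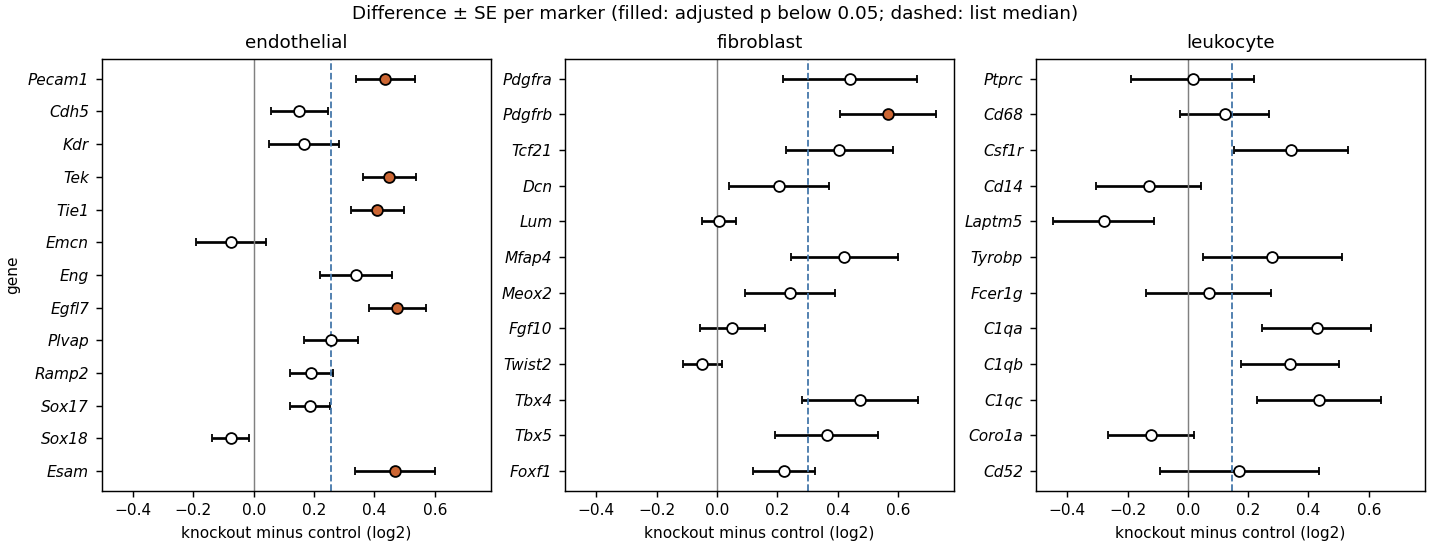
Knockout minus control difference of each marker (log2, horizontal axis) with its SE, in 3 panels for the lineages, n = 4 arrays per group. Filled points passed limma's test (5 endothelial genes and Pdgfrb), open points did not, and the dashed line is the list median (0.25, 0.30 and 0.15).

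Fibroblast markers had the highest median difference of the 3 lists, 0.30, but only Pdgfrb rose (8.33% of the list, beside 8.6% of all genes). At an unadjusted p under 0.05 in limma there were 4, beside 9 of 13 endothelial and 1 of 12 leukocyte markers. The 18.8% of all genes that passed the adjusted threshold also lie under this one. The full share of all genes under it was not counted. The difference was above 0 in 11 of 12, beside 45% of all genes. Pdgfrb, the PDGF receptor beta of pericytes and fibroblasts, read 8.42, 8.43, 8.66 and 8.94 in control and 8.77, 9.10, 9.47 and 9.38 in knockout arrays. The groups overlapped through control replicate 4 and knockout replicate 1, and the rise was 0.57 (SE 0.16, adjusted p = 0.0297, exact permutation p = 0.0571). The call ended without any 1 of control replicates 1 to 3 or knockout replicates 2 to 4, with array weights and with centring on the epithelial markers.

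Pdgfra, the PDGF receptor alpha of alveolar fibroblasts and myofibroblasts, had the largest SD within the groups of the list (0.41). It read 7.94, 8.18, 8.15 and 8.86 in control and 8.41, 8.32, 9.07 and 9.09 in knockout arrays. Control replicate 4 lay above knockout replicates 1 and 2, and the difference of 0.44 did not pass (SE 0.22, adjusted p = 0.225). Tbx4, a T-box transcription factor of lung mesenchyme, read 8.69, 8.84, 9.11 and 9.28 in control and 9.04, 9.15, 9.76 and 9.85 in knockout arrays (0.47, SE 0.19, adjusted p = 0.123). Here too knockout replicates 1 and 2 lay among the controls.

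The same picture held for other regulators and matrix genes of the list. Knockout replicates 3 and 4 lay above all other arrays in 8 of 12 fibroblast markers, beside 8.4% of all genes. They lay above both other knockout arrays in 10 of 12, beside 24.4%. Among endothelial markers these counts were 8 of 13 and 9 of 13, so the order was not particular to the fibroblast list. Tcf21, a transcription factor of the lung mesenchyme, read 8.45 and 8.38 in knockout replicates 3 and 4 and 7.50 to 7.87 in the other 6 (difference 0.41, SE 0.18, adjusted p = 0.154). Mfap4, a protein of elastic microfibrils, read 10.47 and 10.49 there and did not exceed 9.94 elsewhere (0.42, SE 0.18, adjusted p = 0.137). Tbx5, the partner of Tbx4, differed by 0.36 (SE 0.17, adjusted p = 0.188) and the homeobox gene Meox2 by 0.24 (SE 0.15, adjusted p = 0.333).

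Control replicate 4 was the highest control in 10 of 12 fibroblast and 9 of 13 endothelial markers, beside 22.5% of all genes. In Dcn, the matrix proteoglycan decorin, it held the highest value of all arrays at 7.88, and the difference was 0.21 (SE 0.17, adjusted p = 0.479). Foxf1, a forkhead factor of lung mesenchyme and endothelium, lay between 9.47 and 9.51 in control replicates 1 to 3, at 9.85 in control replicate 4 and between 9.68 and 10.04 in knockout arrays (0.22, SE 0.10, adjusted p = 0.181). Its second probe set gave 0.16. Fgf10, the mesenchymal ligand that drives budding of the epithelium, differed by 0.05 (SE 0.11, adjusted p = 0.823). Without knockout replicates 3 and 4 together the list median was 0.06 and the difference of Fgf10 −0.15. Without knockout replicate 1 there were 5 risen members, beside 1510 risen genes of all 19938. Without control replicate 4 there were 3, beside 1617 of all genes.

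Lum and Twist2 did not follow the list. Lum, the proteoglycan lumican, lay between 4.51 and 4.69 in all 8 arrays (0.0055, SE 0.057, adjusted p = 0.966), and whether its probe set read above background is not known. Twist2, a helix-loop-helix factor of mesenchyme, lay between 7.02 and 7.25 (−0.05, SE 0.065, adjusted p = 0.694). Their SDs within the groups were 0.055 and 0.080, while the median SD of the fibroblast list was 0.29.

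**Figure D3:**
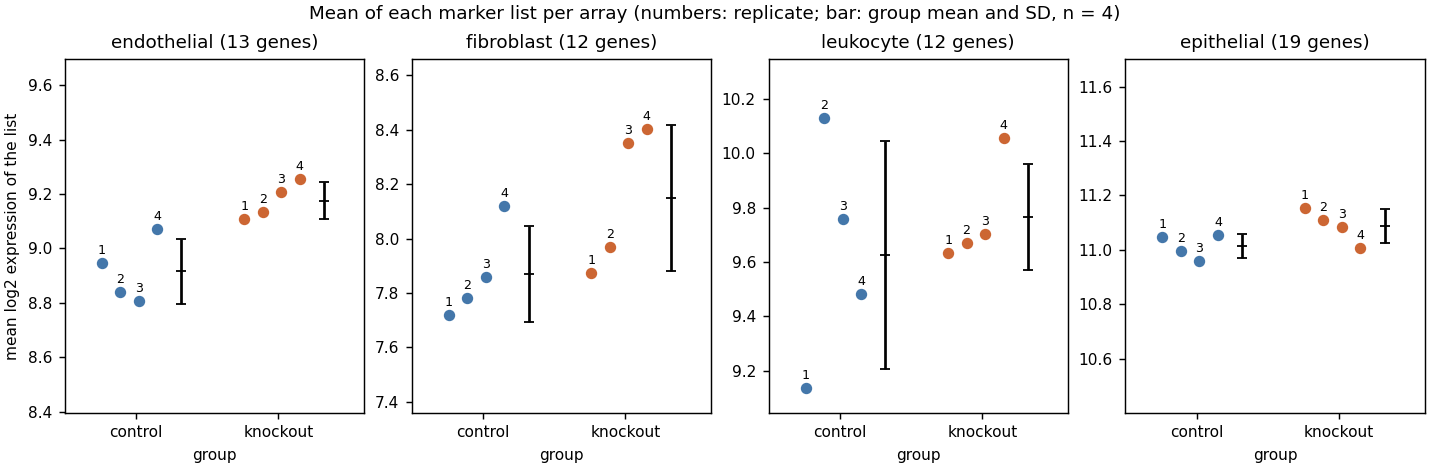
Mean log2 expression of each marker list in each array (vertical axis), by group, with the replicate number above each point and the group mean with SD (n = 4) beside it. All panels span the same range of log2 units. Endothelial means of the knockout arrays (9.11 to 9.26) lie above those of controls (8.81 to 9.07), the fibroblast means of knockout replicates 3 and 4 (8.35 and 8.40) lie above the rest, and the leukocyte means of control replicates 1 and 2 lie farthest apart.

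Among leukocyte markers 0 of 12 passed limma's test, and the list median was 0.15. At an unadjusted p under 0.05 there was 1, a threshold that at least 18.8% of all genes met. The controls spread more than the knockouts. The mean of the list was 9.14, 10.13, 9.76 and 9.48 in the control arrays, with an SD of 0.42, and 9.64, 9.67, 9.70 and 10.06 in the knockout arrays, with an SD of 0.20. Control replicates 1 and 2 thus differed by 1.99-fold, and the knockout arrays spanned 1.34-fold. Control replicate 1 was the lowest and control replicate 2 the highest control in all 12 members, beside 6.91% of all genes, and in 11 of 12, Cd14 being the exception, the controls stood in the order 1, 4, 3, 2 from low to high (3.52% of all genes).

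Cd52, a small glycoprotein anchored on the surface of leukocytes, had the largest SD within the groups of the 37 genes (0.49). It read 7.92, 9.27, 8.78 and 8.29 in control and 8.55, 8.54, 8.59 and 9.27 in knockout arrays. Control replicate 2 and knockout replicate 4 were high and control replicate 1 was low, and the difference was 0.17 (SE 0.26, adjusted p = 0.745). Tyrobp, the signalling adaptor DAP12 of myeloid receptors, read 9.10, 10.37, 10.07 and 9.68 in control and 9.83, 10.02, 10.06 and 10.42 in knockout arrays (0.28, SE 0.23, adjusted p = 0.493). In both genes the controls spanned the wider range.

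Ptprc, the phosphatase CD45 of leukocytes, lay between 7.76 and 9.03 in control and between 8.34 and 8.55 in knockout arrays. Control replicate 2 was 2.41-fold above control replicate 1, and the difference between the groups was 0.02 (SE 0.20, adjusted p = 0.974). The Fc receptor gamma chain Fcer1g (0.07, SE 0.21, adjusted p = 0.877) and the lysosomal glycoprotein Cd68 (0.12, SE 0.15, adjusted p = 0.664) also had differences within the SE. Without control replicate 1 the signs of Ptprc, Fcer1g, Cd68 and Cd52 turned and the list median was −0.02, and without control replicate 2 it was 0.32.

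Of the 12 leukocyte differences 9 were above 0 and 3 below, beside 45% of all genes above 0, and none passed. Csf1r, the receptor of macrophage growth factor, had a difference of 0.34 (SE 0.19, adjusted p = 0.268). C1qa, C1qb and C1qc, which encode the chains of complement C1q made by tissue macrophages, differed by 0.43 (SE 0.18, adjusted p = 0.139), 0.34 (SE 0.16, adjusted p = 0.198) and 0.44 (SE 0.20, adjusted p = 0.188). Laptm5, a lysosomal membrane protein of blood cells, differed by −0.28 (SE 0.17, adjusted p = 0.312), Cd14, the coreceptor for bacterial lipopolysaccharide, by −0.13 (SE 0.17, adjusted p = 0.704), and Coro1a, a coronin of the leukocyte cytoskeleton, by −0.12 (SE 0.14, adjusted p = 0.656). Without control replicate 2, the control with the highest leukocyte values, Csf1r (0.54, adjusted p = 0.0183), C1qa (0.59, adjusted p = 0.0267) and C1qb (0.48, adjusted p = 0.0459) passed, while Cd14 and Coro1a both turned to 0.02. Without control replicate 1, the lowest control, the differences shrank to 0.20 in Csf1r, 0.28 in C1qa and 0.24 in C1qb and none passed. Without knockout replicate 4 the list median was 0.028, and the differences were 0.26 in C1qc, 0.22 in C1qb and −0.0056 in Cd52.

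The C1q chains were also set beside Laptm5 within each array, a pairing chosen after the values were seen and therefore not tested. In the controls all 4 genes stood in the same order over the arrays, and the pairs differed between the groups. With the control mean of each log2 difference set to 0, C1qa minus Laptm5 was −0.013, 0.045, −0.065 and 0.032 in control and 0.60, 0.42, 1.00 and 0.81 in knockout arrays. For C1qc minus Laptm5 the controls lay between −0.025 and 0.031 and the knockouts between 0.36 and 1.04, and for C1qb minus Laptm5 between −0.11 and 0.12 and between 0.31 and 0.80. The groups did not overlap in any of these 3 differences, but Laptm5 had the lowest difference of the list and C1qc and C1qa the highest. The gap is therefore partly fixed by the choice of genes, and its share among other pairs was not counted. The levels themselves overlapped, since C1qa lay between 8.74 and 9.66 in control and between 9.39 and 9.90 in knockout arrays, and Laptm5 between 10.54 and 11.40 in control and between 10.48 and 10.88 in knockout arrays. Such a difference describes the chosen pair and does not show which of its genes changed, or whether either did.

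**Figure D4:**
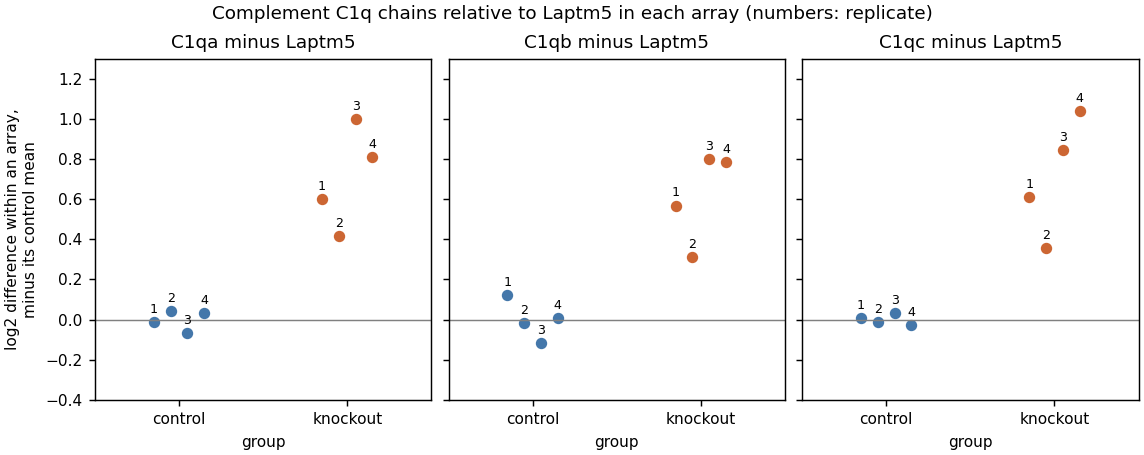
Log2 difference of C1qa, C1qb and C1qc from Laptm5 within each array (vertical axis, control mean set to 0), by group, with the replicate number at each point. Control points lie between −0.11 and 0.12 and knockout points between 0.31 and 1.04.

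The 3 C1q genes follow each other on chromosome 4 in the order C1qb, C1qc and C1qa in the RefSeq table of GRCm38.p6. The upstream windows of C1qb, chr4:136886201-136886450, and C1qc, chr4:136892915-136893164, both on the minus strand, are shown because the controls of these neighbours stood in the same order. That order was found in 11 of 12 leukocyte markers and is not particular to these genes, and a link to the windows was not tested. Matches to AGGAAG or its reverse complement CTTCCT are in capitals. C1qb holds 1 match, starting at position −52, and C1qc holds 2, at −194 and −157.
C1qb: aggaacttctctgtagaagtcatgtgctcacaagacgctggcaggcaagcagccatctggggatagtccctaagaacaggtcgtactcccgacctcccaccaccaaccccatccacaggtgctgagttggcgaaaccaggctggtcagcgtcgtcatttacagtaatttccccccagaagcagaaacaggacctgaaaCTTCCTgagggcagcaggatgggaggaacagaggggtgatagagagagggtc
C1qc: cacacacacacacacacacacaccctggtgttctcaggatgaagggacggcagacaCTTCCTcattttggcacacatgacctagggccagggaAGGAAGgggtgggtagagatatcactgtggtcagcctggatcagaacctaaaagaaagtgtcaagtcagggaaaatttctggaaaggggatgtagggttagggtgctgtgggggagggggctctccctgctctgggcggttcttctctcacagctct
The SD within the groups was 0.37 in C1qc, 0.33 in C1qa and 0.29 in C1qb, while the leukocyte list ran from 0.25 to 0.49.

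The markers of a list varied together within the groups. The SD within the groups, taken from limma's residuals, had a median of 0.15 in the endothelial, 0.29 in the fibroblast and 0.33 in the leukocyte list, beside 0.11 over all genes. Of all genes 98.5% had an SD below the leukocyte median and 97.3% one below the fibroblast median. These shares are over genes of every level and were not matched for level. When the mean of the other members was taken off in each array, the medians became 0.096, 0.14 and 0.13. The SD became smaller in 11 of 13 endothelial, 10 of 12 fibroblast and 12 of 12 leukocyte markers. The exceptions were Esam and Sox18 among the endothelial and Lum and Twist2 among the fibroblast genes.

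**Figure D5:**
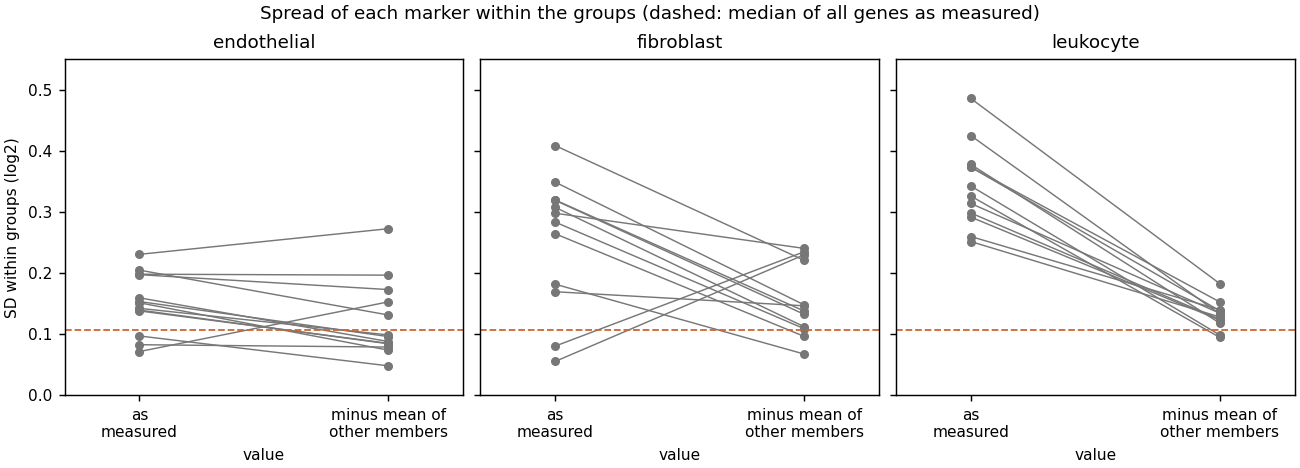
SD of each marker within the groups (vertical axis, log2) as measured and after taking off the mean of the other members of its list in each array, with a line per gene and the median of all genes as measured (0.11) dashed. All 12 lines of the leukocyte panel fall, and the lines that rise in the fibroblast panel are Lum and Twist2.

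Other markers of the same cell types, taken from lists that hold none of the 37 genes, gave the following counts. Beside them, 8.6% of all genes rose and 10.2% fell. Of 26 other endothelial genes 8 rose (30.8%) and 1 fell (3.85%), with a median difference of 0.20. Their list means were 8.11 to 8.34 in control and 8.38 to 8.54 in knockout arrays. Of 23 other fibroblast genes 5 rose (21.7%) and 1 fell (4.35%), with a median of 0.28. Of 16 smooth muscle and pericyte genes 4 rose (25%) and none fell (median 0.17). The mean of the smooth muscle and pericyte genes was 7.70 and 7.78 in knockout replicates 3 and 4 and 7.30 to 7.55 in the other arrays. Of 22 other macrophage and general leukocyte genes 2 rose and 2 fell (9.09% each, near the shares of all genes), with a median of 0.16. Their means were 8.48, 9.39, 8.92 and 8.77 in control replicates 1 to 4, the order of the leukocyte markers above. The part of these cell types in any other difference between the groups was not tested.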

How the data were processed

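Expression was measured on single-colour arrays, with biotin-labelled total RNA per the labels' protocols. The authors deposited log2 expression of 35556 probe sets in 8 arrays. That the scale is log2 was read from the values, while software, normalization and genome build are not given in the sources used. At every rank the arrays lay within 0.175 of their mean, so no further scaling was applied. Such scaling hides changes in total RNA per cell. In the platform's annotation 21789 probe sets have 1 symbol, 1621 several and 12146 none. Where a gene had several probe sets (999 genes), the one with the highest mean was used. All 37 markers matched RefSeq by gene number.

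Groups came from the titles. Knockout and control were compared over all 19938 genes in R 4.3.3 with limma 3.58.1 (lmFit, then eBayes), two-sided, with Benjamini-Hochberg adjustment and a threshold of 0.05. The fit was tested on simulated data. Exact permutation tests used all 70 assignments. Precision is limited by the number of arrays. The markers and lists were chosen with earlier results of these data known. All 37 genes are named, with values in every array for those that passed and the 2 of each list with the largest SD, and some others chosen after their values were seen. From the other lists only genes of a list with 5 or fewer calls are named, and for each marker list the 5 genes most like its mean. Alternatives were a replicate block, centring, quantile normalization, a filter on dim genes, probe set means, other variance models, array weights and left-out arrays. Leaving out control replicates 1 and 2, or knockout replicates 3 and 4, was chosen after seeing the data.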

Additional observations from a re-analysis of the deposited data

Results flagged for a closer look

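In 4 of the 80 groups of 4 values looked at, for the 37 markers and the 3 list means, a single array stood apart from the rest of its group, and chance marks about 1 in 20 such groups. Egfl7 read 9.49 in control replicate 4 and 9.24 to 9.27 in the other controls. Foxf1 read 9.85 in control replicate 4 and 9.47 to 9.51 in the other controls. Cd52 read 9.27 in knockout replicate 4 and 8.54 to 8.59 in the other knockout arrays. The mean of the leukocyte markers was 10.06 in knockout replicate 4 and 9.64 to 9.70 in the other knockout arrays.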

How the results depend on the processing

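Of all genes 1715 rose, between 1240 and 1820 when 1 array was left out, and 1280 without knockout replicates 3 and 4 together. Without control replicates 1 and 2 together 992 rose. The count of changed genes was 3746 and lay between 2766 and 3978 when 1 array was left out, and it was 2268 without control replicates 1 and 2 together. The endothelial count of 5 risen genes became 0 without those controls, where the list median was 0.25 and Tie1 and Esam differed by 0.36 and 0.47, and 3 without knockout replicates 3 and 4 together, where the median was 0.16. When 1 array was left out it lay between 4 and 7. The fibroblast count of 1 became 0 with centring on the epithelial markers, with array weights, without control replicates 1 and 2 together and without knockout replicates 3 and 4 together (median 0.061), and lay between 0 and 5 when 1 array was left out. The leukocyte count of 0 lay between 0 and 3 when 1 array was left out, and that list's median between −0.02 and 0.32. No member of the 3 lists fell in any of the 19 alternatives. Fewer arrays widen the errors, and the cause of the other changes was not tested.

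Arrays with the same replicate number deviated together with correlations of 0.0597, 0.0951, −0.0818 and 0.0442. Of 4 controls 0 correlated best with the knockout array of its own number. Over all genes this gives no sign that the numbers pair the arrays, but it cannot exclude pairing. The mean of the fibroblast markers increased with the replicate number in both groups, from 7.72 to 8.12 in control and from 7.87 to 8.40 in knockout arrays. With the replicate number as a block, 3494 of 19938 genes changed and 1595 of them rose. There 6 fibroblast markers rose, Pdgfrb, Pdgfra (adjusted p = 0.0388 in limma), Mfap4 (0.0404), Tbx4 (0.00405), Tbx5 (0.0169) and Foxf1 (0.0424).

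Some differences changed sign, with no call on either side. Lum was −0.0046 with array medians centred, −0.016 with quantile normalization, −0.068 with centring on the epithelial markers, −0.0068 with array weights, −0.044 without control replicates 1 and 2 and −0.015 without knockout replicates 3 and 4. In the same way Fgf10 was −0.024 with epithelial centring, −0.045 with array weights, −0.016 without the 2 controls and −0.15 without the 2 knockouts. Ptprc was −0.058 with epithelial centring, −0.044 without knockout replicates 1 and 4 together and −0.029 without knockout replicates 3 and 4. Fcer1g was −0.0048 with epithelial centring and −0.054 without knockout replicates 1 and 4. Cd52 was −0.00019 without knockout replicates 1 and 4 and −0.019 without knockout replicates 3 and 4, where Meox2 was −0.046. With 1 array left out the difference lay between −0.025 and 0.035 for Lum, −0.019 and 0.13 for Fgf10, −0.20 and 0.23 for Ptprc, −0.12 and 0.24 for Fcer1g, −0.17 and 0.013 for Emcn, −0.0048 and 0.24 for Cd68, −0.045 and 0.41 for Cd52, −0.31 and 0.022 for Cd14, and −0.26 and 0.022 for Coro1a. Sox17, Dcn, Lum, Meox2, Fgf10 and Twist2 lay below the median level and have no value under the filter on dim genes.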

Other observations

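Markers of further cell types that an Epcam fraction could hold were read beside the 18.8% of all genes that changed. Of 9 mesothelial genes 2 rose (22.2%, beside 8.6% of all genes), Msln (0.75, adjusted p = 3.15e-05) and Upk1b (1.43, adjusted p = 0.000228), both of which airway and other epithelia can also express. Of 12 lymphocyte genes Il7r, the interleukin 7 receptor, rose (0.85) and Cd79b, a subunit of the B cell receptor, fell (−0.87, adjusted p = 0.00163), and the list mean lay between 5.75 and 5.85 in all arrays. Of 13 granulocyte and mast cell genes the receptor Kit rose (0.25, adjusted p = 0.0196), and the list means of controls, 6.71, 7.23, 7.01 and 6.81 in replicates 1 to 4, stood in the order of the leukocyte markers. None of 6 erythroid genes passed limma's test. An unadjusted p under 0.05, met by at least 18.8% of all genes, was found in 1 of them. Of 6 neural genes Stmn2 rose (0.39, adjusted p = 0.00206).

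Among the 22 other macrophage and general leukocyte genes 9.09% rose and 9.09% fell, near the 8.6% and 10.2% of all genes. Itgam, an integrin of myeloid cells (0.56, adjusted p = 0.0386), and Mrc1, the mannose receptor (0.39, adjusted p = 0.0497), rose. Lyz2, a lysozyme that type 2 alveolar cells also make, fell (−0.93, adjusted p = 4.69e-05), as did Lcp1, the actin-bundling L-plastin (−0.31, adjusted p = 0.0140). Among 16 smooth muscle and pericyte genes Cspg4 (0.47), Notch3 (0.41), Abcc9 (0.43) and Higd1b (0.49), all used as pericyte markers, rose (25%, beside 8.6% of all genes). The other 12 did not pass, among them the pericyte markers Rgs5, Kcnj8 and Cox4i2, and 5 of the 16 differences were below 0.

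Outside all lists, the genes whose levels over the 8 arrays were most like the mean of the endothelial markers were Adgrl2, Aebp2, Pard3b, Dbn1 and Dennd5b, with Pearson's r from 0.97 to 0.99. For the fibroblast markers they were Lama2, Tmtc1, Eln, Col6a1 and Adh1 (r from 0.98 to 1.00), and for the leukocyte markers Ms4a6c, Inpp5d, Unc93b1, Pik3cg and Tnfrsf1b (r from 0.97 to 0.99). These are the highest values among all genes over 8 arrays, include the difference between the groups, and are a description without a test.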
